A study of Mus musculus with 4 samples.

Results

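10 genes of the NRF2 antioxidant programme were followed in fetal liver, with their values on each of the 4 arrays of the series. They were the gene of the transcription factor itself, Nfe2l2, and 9 genes known as its targets, Nqo1, Hmox1, Gclc, Gclm, Srxn1, Txnrd1, Slc7a11, G6pdx and Osgin1. The genes were taken by name, with earlier results of these data known. A probe set is the group of short probes that reports 1 transcript. Each gene was represented by its brightest probe set among those with a single gene symbol in the platform annotation. Of the 10 genes, 9 had such a probe set, out of 18193 genes with a probe set of 1 symbol on the array, and G6pdx, which had none in the annotation used here, was not analysed here. The 9 genes were covered by 18 probe sets. Of the 9, 8 were bright enough to be tested, and Slc7a11 was not.

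Liver was taken on gestation day 17 from mouse fetuses of the C57BL/6 strain, sired by Sox17+/- males on females of that strain, and freed of the biliary system before RNA extraction. The wildtype group had 2 arrays and the Sox17+/- group, with 1 altered copy of the gene for the endodermal and endothelial transcription factor SOX17, had 2, each a biological replicate. The dams were 6 to 8 weeks old and the sires over 3 months. The labels name no agent given to either group. The sources used here do not say how the Sox17 allele was made, or if the RNA of a replicate came from a single fetus or from several. As these were bulk tissue samples, fewer cells of a type and less RNA per cell cannot be told apart.

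NRF2 is a basic leucine zipper factor that is held in the cytoplasm by KEAP1 and degraded. When electrophiles or oxidants modify KEAP1, NRF2 accumulates, pairs with small MAF proteins and binds the antioxidant response element in the promoters and enhancers of genes for glutathione synthesis, thioredoxin function, NADPH supply, quinone reduction and haem breakdown. BACH1 occupies many of the same elements as a repressor and leaves them when haem is abundant. The fetal liver is at this stage both a metabolic organ and the site of red cell production, and its macrophages engulf the nuclei that maturing red cells expel and recycle haem iron.

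RefSeq promoter windows (GRCm38.p6, 250 bases before to 50 after an annotated start) were at hand for 8 of the 10 genes, in 10 windows. Hmox1, the member with the largest difference, and Gclc had none and were not searched. The 10 windows were searched on both strands for the core of the antioxidant response element, TGACNNNGC, and for the AP-1 motif TGANTCA. The element core lay in the windows of 5 genes (Nfe2l2, Gclm, Srxn1, Txnrd1 and G6pdx) and the AP-1 motif in those of 2 (Srxn1 and Osgin1), and no match of one motif overlapped a match of the other. Of all 32851 windows in the table, 12.4% held the element core and 7.81% the AP-1 motif. The windows of Nqo1 and Slc7a11 held neither string, which says only that these letters were not in these windows. Printed here are the windows with matches of 3 target genes whose Sox17+/- arrays lay above the wildtype arrays and, for comparison, that of Nfe2l2, whose arrays overlapped. Capitals mark the matches, and each sequence is read along the strand of its gene. The Srxn1 window (chr2:152105274-152105573, plus strand) held 2 AP-1 matches before the start and an element core match, on the other strand, after it. The later AP-1 match is followed by gc and so differs from the searched element core only in having G where the core has C. The Gclm window (chr3:122245307-122245606, plus strand) and 1 of the 3 Txnrd1 windows (chr10:82858956-82859255, plus strand) each held 1 element core match, read on the other strand. The Nfe2l2 window (chr2:75704614-75704913, minus strand) held 1 on the strand shown.
Srxn1: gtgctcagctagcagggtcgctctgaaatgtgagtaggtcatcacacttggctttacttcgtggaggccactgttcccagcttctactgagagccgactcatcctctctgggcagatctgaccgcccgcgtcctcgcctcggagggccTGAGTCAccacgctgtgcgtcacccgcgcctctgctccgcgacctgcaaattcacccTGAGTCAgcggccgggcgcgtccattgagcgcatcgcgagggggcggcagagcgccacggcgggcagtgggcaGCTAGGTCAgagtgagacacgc
Gclm: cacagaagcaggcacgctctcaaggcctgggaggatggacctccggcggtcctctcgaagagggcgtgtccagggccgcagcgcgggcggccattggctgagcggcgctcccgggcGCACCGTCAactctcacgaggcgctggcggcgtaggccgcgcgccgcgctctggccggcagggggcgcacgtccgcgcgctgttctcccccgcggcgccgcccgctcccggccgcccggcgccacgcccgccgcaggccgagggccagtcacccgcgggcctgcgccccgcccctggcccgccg
Txnrd1: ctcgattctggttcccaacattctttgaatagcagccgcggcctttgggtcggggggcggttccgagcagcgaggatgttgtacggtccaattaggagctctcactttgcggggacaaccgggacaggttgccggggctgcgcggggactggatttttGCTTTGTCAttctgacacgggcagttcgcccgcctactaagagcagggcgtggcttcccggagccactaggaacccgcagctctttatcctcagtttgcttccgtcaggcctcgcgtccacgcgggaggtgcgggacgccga
Nfe2l2: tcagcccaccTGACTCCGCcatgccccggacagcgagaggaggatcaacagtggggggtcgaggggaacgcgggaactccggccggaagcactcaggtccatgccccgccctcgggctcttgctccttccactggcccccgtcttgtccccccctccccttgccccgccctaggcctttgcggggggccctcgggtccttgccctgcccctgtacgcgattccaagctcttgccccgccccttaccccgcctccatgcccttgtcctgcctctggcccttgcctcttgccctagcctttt

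Sox17 itself checked the labels. Its brighter probe set gave signals of 244 and 264 on the wildtype arrays and 139 and 124 on the Sox17+/- arrays. The values did not overlap, and the ratio of the means was 0.518. Xist is transcribed from the inactive X chromosome of females. Its log2 difference, Sox17+/- minus wildtype, was -0.07 between the arrays numbered 1 and -6.83 between those numbered 2. The arrays numbered 2 therefore differed in fetal sex or mix of sexes, which the sample titles do not give. The genotypes were thus not matched for sex, and its part in the differences was not tested. The deposited MAS5 signals had been brought to a mean of 500 on each array after trimming 2% at each end, and median signals lay between 84.7 and 103. The actin control set wildtype array 1 apart from the rest, with a 3' signal of 11909.5 against 24712 to 35014 on the other arrays. Its 3' to 5' ratio was 1.95 there against 1.20 to 1.43. The Gapdh control did not set it apart, with a 3' to 5' ratio of 0.853 against 0.807 to 0.843. Because of the actin control alone, some results are also given without wildtype array 1. These are counts of separated genes among the NRF2 genes and the lists of other pathway genes, and values of some genes. Cell type markers are given with all arrays only. Hepatocyte markers were among the brightest probe sets, with the 7 measured at or above the 99.6 percentile.

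Hmox1, Srxn1, Txnrd1 and Gclm were higher on both Sox17+/- arrays than on both wildtype arrays, 4 of the 8 tested genes. Of all 11691 tested genes, 14.5% lay above the wildtype arrays in this way and 18.6% below them (16.2% and 11.1% with each array centred on its median). None of the 8 lay below. The log2 differences of the 8, on log2(signal + 16), ran from 0.06 to 1.31 with a median of 0.19, and the median over all tested genes was -0.02. No difference passed the limma test: 0 of the 22519 tested probe sets, 0% in either direction, had an adjusted p under 0.05, and the adjusted p of each of the 8 genes was 0.9999. At an unadjusted p under 0.05, 2 of the 8 were higher (Hmox1 and Srxn1) and 0 lower, beside 1.61% and 2.54% of all tested genes. With 2 arrays per genotype an exact two-sided permutation test cannot go below 0.333. Without wildtype array 1, 4 of the 8 lay above and 1, Gclc, below, where 30.2% and 36.3% of all tested genes did so against the single wildtype array, and the median was 0.15.

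**Figure D1:**
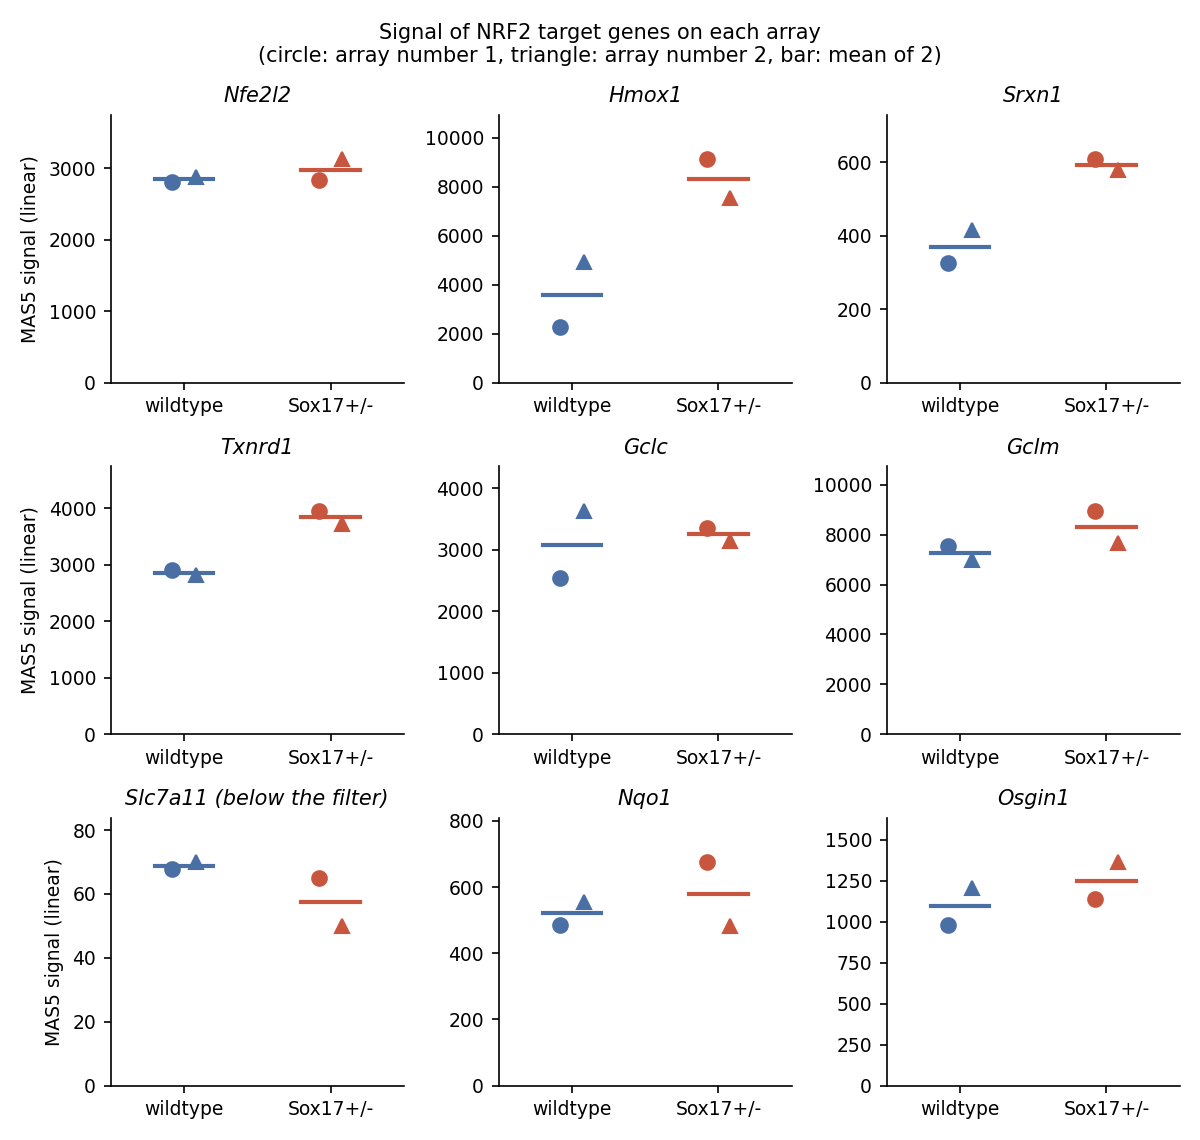
MAS5 signal (linear scale, from 0) of the 9 measured genes on each array, wildtype in blue and Sox17+/- in red, with circles for arrays numbered 1, triangles for arrays numbered 2 and a bar at the mean of 2. The genotypes are separate for Hmox1, Srxn1, Txnrd1 and Gclm, and for Slc7a11 in the other direction at signals of 50.1 to 69.9, and they overlap for Nfe2l2, Gclc, Nqo1 and Osgin1.

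The regulator was nearly level. Nfe2l2 (probe set 1416543_at) had signals of 2810 and 2881 on the wildtype arrays and 2834 and 3121 on the Sox17+/- arrays. The lower Sox17+/- value lay between the wildtype values, so the genotypes overlapped. The log2 difference was 0.06 (SE 0.20), with a 95% interval of -0.44 to 0.57, so that a difference of up to 1.49-fold was within the interval. A dim second probe set, below the brightness filter, gave 61.8 and 51.1 against 63.2 and 83.1. The mRNA level is only part of NRF2 control, which acts largely through the stability of the protein, and protein was not measured.

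Hmox1 had the largest difference of the 8. It encodes haem oxygenase 1, the inducible enzyme that opens the haem ring to biliverdin, carbon monoxide and iron. Its probe set 1448239_at gave signals of 2261 and 4948 on the wildtype arrays and 9123 and 7538 on the Sox17+/- arrays. Both Sox17+/- values lay above both wildtype values, and the wildtype values themselves were 2.19-fold apart. The means were 3605 ± 1900 in wildtype and 8330 ± 1121 in Sox17+/- liver (mean ± SD, n = 2 each). The log2 difference was 1.31 (SE 0.41), or 2.47-fold, with a 95% interval of 1.21 to 5.05-fold and an adjusted p of 0.9999 by limma. Only 0.351% of all tested genes had a higher log2 difference. Between the arrays numbered 1 it was 2.005 and between those numbered 2 it was 0.61. Without wildtype array 1, the array with the lowest Hmox1 signal, it was 0.74, and without wildtype array 2 it was 1.87 (adjusted p = 0.9997 and 0.167 by limma).

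Srxn1, the sulfiredoxin that reduces over-oxidised peroxiredoxins, followed. Its brightest probe set, 1451680_at, gave 325 and 416 on the wildtype arrays and 608 and 579 on the Sox17+/- arrays. The genotypes did not overlap, and the means were 371 ± 64.3 and 593 ± 20.7 (mean ± SD, n = 2 each). The log2 difference was 0.67 (SE 0.22), or 1.59-fold, with a 95% interval of 1.07 to 2.35-fold. It was 0.87 between the arrays numbered 1, 0.46 between those numbered 2 and 0.49 without wildtype array 1. Of all tested genes 2.32% had a higher difference. Srxn1 had 3 further probe sets, which share the RNA of the same 4 samples and so are not replicates. Probe set 1426875_s_at gave 258 and 250 against 517 and 435, the widest separation of the 4, and 1425351_at gave 151 and 177 against 218 and 259. Probe set 1419942_at gave 249 and 120 against 241 and 167, with overlapping genotypes and a log2 difference of 0.19. The differences on 3 of the 4 probe sets thus had the Sox17+/- arrays above, between 0.50 and 0.86 on the log2 scale.

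Txnrd1 encodes cytosolic thioredoxin reductase, the selenoenzyme that keeps thioredoxin reduced with NADPH. Its brightest probe set, 1421529_a_at, gave 2905 and 2812 on the wildtype arrays and 3954 and 3723 on the Sox17+/- arrays. Replicates lay close together in each genotype, at 2858 ± 65.6 and 3838 ± 163 (mean ± SD, n = 2 each), and did not overlap. The log2 difference was 0.42 (SE 0.20), or 1.34-fold, with a 95% interval of 0.948 to 1.90-fold. It was nearly the same in both array numbers, at 0.44 and 0.40. The other probe sets did not separate the genotypes. Probe set 1424486_a_at gave 417 and 607 against 488 and 814, and 1424487_x_at gave 165 and 227 against 151 and 274. On both of these the arrays numbered 2 were the brighter in each genotype.

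The enzyme that makes γ-glutamylcysteine, the rate-limiting step of glutathione synthesis, has a catalytic subunit (Gclc) and a modifier subunit (Gclm). Gclm gave 7547 and 6982 on the wildtype arrays and 8956 and 7657 on the Sox17+/- arrays (1418627_at). The lowest Sox17+/- value was just above the highest wildtype value, and the log2 difference was 0.19 (SE 0.21), with a 95% interval of -0.34 to 0.72. Its second probe set, 1439050_at, gave 1832 and 1577 against 2060 and 2091, also without overlap, and a log2 difference of 0.29. Gclc gave 2536 and 3631 against 3354 and 3146 on its brightest probe set, 1455959_s_at. Here the Sox17+/- values lay between the wildtype values, and the log2 difference was 0.10 (SE 0.25), or -0.16 without wildtype array 1. On 1424296_at, the other Gclc probe set, the signals were 1616 and 2085 against 2557 and 2174, without overlap, and the log2 difference was 0.36. The call of separation for Gclc therefore depended on the probe set. Slc7a11, the cystine transporter that supplies cysteine for glutathione, was dim, below the filter on both its probe sets. The brighter gave 67.7 and 69.9 against 65.0 and 50.1, the reverse order, and the other 42.2 and 4.36 against 31.5 and 23.6. No test was made at these signals.

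Nqo1, the quinone reductase often used as the marker gene of NRF2 activity, had overlapping genotypes. Its probe set 1423627_at gave 484 and 556 on the wildtype arrays and 675 and 482 on the Sox17+/- arrays. The highest and the lowest value both came from Sox17+/- liver, and the log2 difference of 0.13 (SE 0.25) had a 95% interval of -0.50 to 0.77. It was 0.47 between the arrays numbered 1 and -0.20 between those numbered 2. Osgin1, an oxidative stress induced growth inhibitor, gave 982 and 1205 against 1136 and 1363 (1424022_at). The genotypes overlapped, although within each array number the Sox17+/- array was the higher, by 0.21 and 0.18 on the log2 scale.

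**Figure D2:**
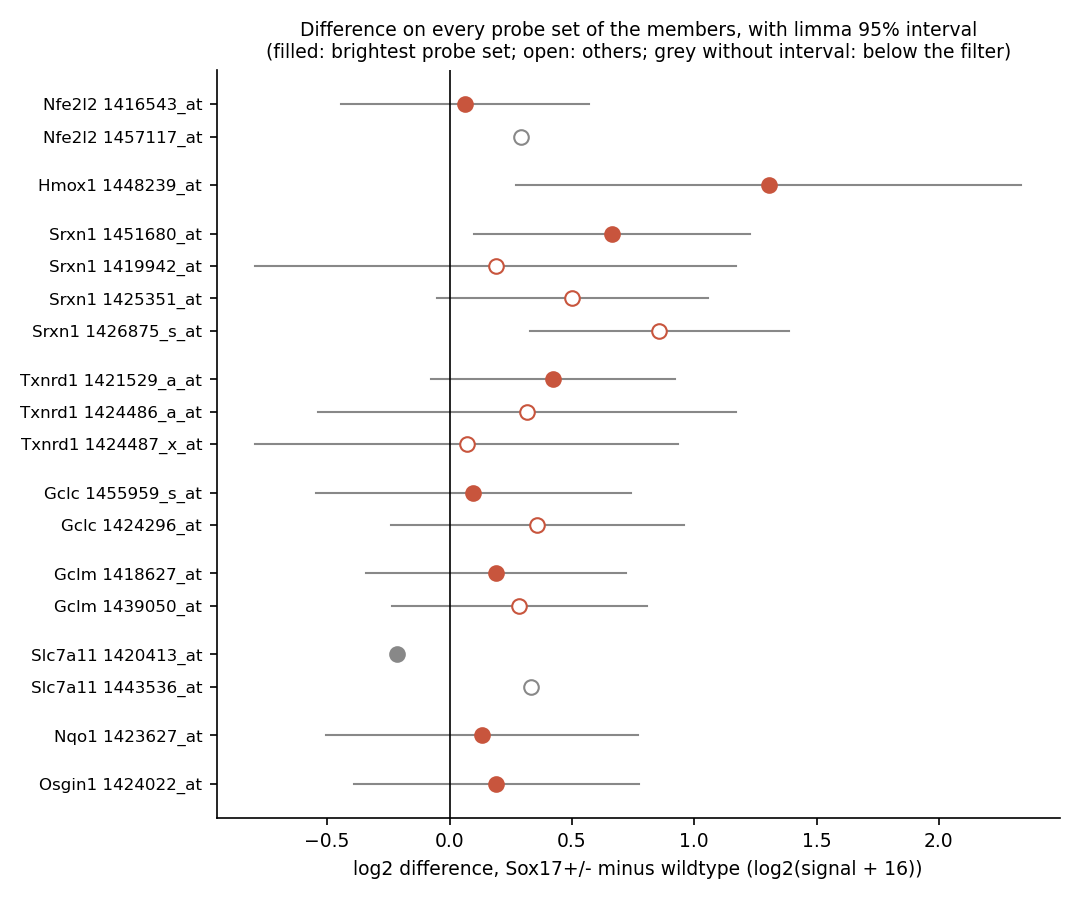
Difference between the genotypes on every probe set of the 9 measured genes (x axis, log2 of signal + 16, Sox17+/- minus wildtype), filled for the brightest probe set of a gene and open for the others, with the limma 95% interval (not adjusted for the number of probe sets) where it was tested. All 15 tested probe sets lie to the right of 0, and the intervals of 3 of them, 1 of Hmox1 and 2 of Srxn1, do not reach it. Of all 22519 tested probe sets 923 have an interval that does not reach 0, in either direction. Probe sets of the same gene share RNA and are not separate evidence.

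Over all 18 probe sets of the genes, the Sox17+/- arrays lay above the wildtype arrays on 9, below on 1 (Slc7a11) and overlapped on 8. Over the 45037 probe sets of the array without controls, 13.5% lay above and 17.5% below. Of the 15 tested probe sets of the genes 8 lay above and 0 below, beside 14.1% and 16.9% of all tested probe sets. The members' median log2 difference was 0.42 between the arrays numbered 1 and 0.15 between those numbered 2, against -0.03 and -0.02 over all tested genes. In both array numbers 6 of the 8 had the higher signal in Sox17+/- liver and 0 the lower, beside 25.5% and 32.2% of all tested genes, and Nqo1 and Gclc were higher in the first and lower in the second.

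**Figure D3:**
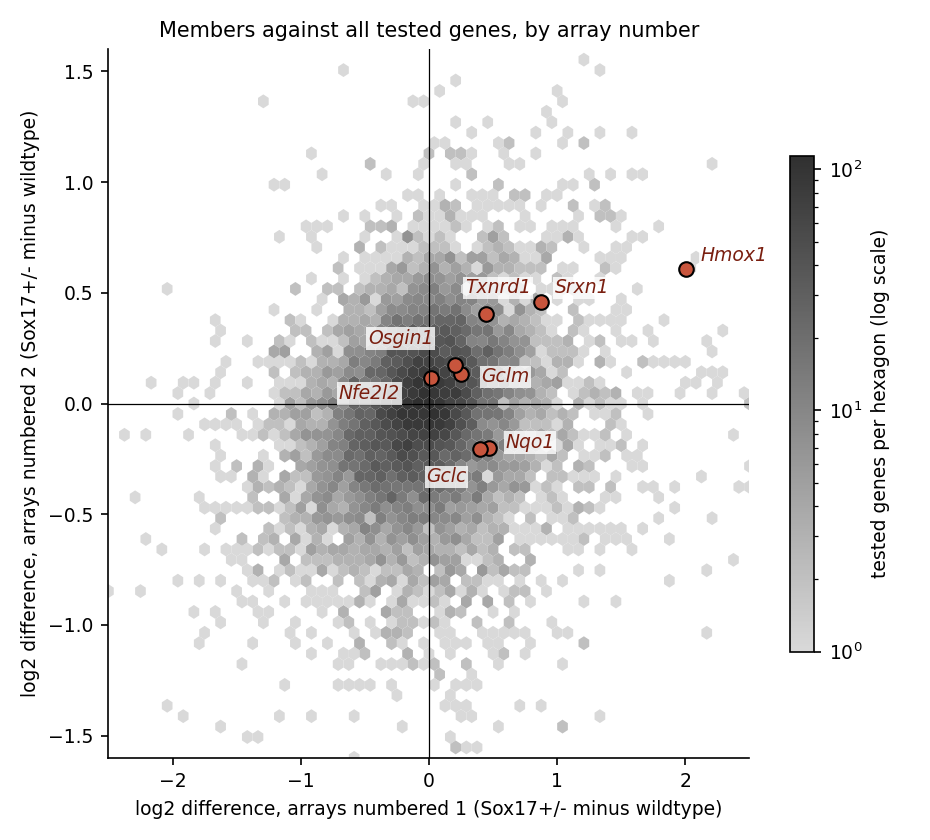
Log2 difference (Sox17+/- minus wildtype, log2 of signal + 16) between the arrays numbered 1 (x axis) and between those numbered 2 (y axis), with all tested genes in grey (darker where more genes fall, 76 of 11691 beyond the axes) and the 8 tested NRF2 genes as red points. Hmox1 lies farthest right at 2.005 and 0.61, Srxn1 and Txnrd1 follow in the upper right, and Nqo1 and Gclc lie below the horizontal line.

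Other genes of the pathway were taken in 6 lists by role, with 64 of 76 genes tested. None passed the limma test (0 of 64, smallest adjusted p 0.9999). Regulators and partners of NRF2 were, of the 6 lists, the one with most genes above wildtype: 7 of 12 tested lay above without overlap and 0 below, beside 14.5% and 18.6% of all tested genes, and their median log2 difference was 0.24. Without wildtype array 1, 8 of the 12 lay above and 1 below, beside 30.2% and 36.3% of all tested genes, with a median of 0.21. Maff, a small MAF partner, gave 789 and 326 on the wildtype arrays and 1618 and 901 on the Sox17+/- arrays. The genotypes were separate but each spread widely, and the log2 difference was 1.22 (SE 0.50). Bach1, the haem-sensing repressor of Hmox1, gave 2180 and 2005 against 2924 and 2617, a log2 difference of 0.40 (SE 0.20). Sqstm1, which encodes the autophagy receptor p62 that binds KEAP1, gave 4484 and 4333 against 6229 and 5390 (log2 difference 0.39, SE 0.21). Nfe2l1, the related factor NRF1, gave 395 and 534 against 620 and 632 (log2 difference 0.43, SE 0.23). For Bach1, Sqstm1 and, by a small margin, Nfe2l1 the difference between genotypes was larger than that between replicates. Keap1 gave 919 and 1245 against 1191 and 1405, with overlap. The list mixes partners of NRF2 with factors that act against it, such as Bach1 and Keap1. Its count and median therefore give no direction of NRF2 activity.

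Genes of haem breakdown, iron storage and metal binding, which stand beside Hmox1, had overlapping genotypes in 6 of 9 cases. Of the 9 tested, 2 lay above wildtype and 1 below, near the 14.5% and 18.6% of all tested genes. The median log2 difference was 0.07, or 0.15 without wildtype array 1. The counts without that array were 4 above and 1 below, beside 30.2% and 36.3% of all tested genes. Slc48a1, a haem transporter, gave 1690 and 2409 on the wildtype arrays and 2478 and 2627 on the Sox17+/- arrays, and Blvra, biliverdin reductase A, gave 2675 and 2501 against 3094 and 2871. Alas1, the first enzyme of haem synthesis outside red cells, lay below, with 1677 and 1618 against 1509 and 1313. The metal-binding Mt2 gave 27224 and 22245 against 38235 and 24141, with overlap. The constitutive haem oxygenase Hmox2, chosen after its values were seen, gave 2315 and 1911 against 2028 and 1850, where Hmox1 was 2.47-fold apart. The difference between these 2 genes' log2 differences was not tested.

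Genes of glutathione recycling, thioredoxins and NADPH supply had medians near 0. Their counts stand beside 14.5% of all tested genes above and 18.6% below. Of 7 tested glutathione genes 2 lay above and 0 below (median log2 difference 0.05). Gpx3, a secreted glutathione peroxidase, gave 1119 and 916 against 1217 and 1188, and Gsr, glutathione reductase, gave 2006 and 2058 against 2164 and 2546. Slc3a2, the chain that pairs with Slc7a11, gave 3377 and 5315 against 6177 and 4925, with overlap, and glutaredoxin Glrx gave 1684 and 1257 against 1322 and 904. Of 11 tested thioredoxin, peroxiredoxin and dismutase genes 1 lay above, Prdx3, and 0 below (median 0.01). The mitochondrial peroxiredoxin Prdx3 gave 12839 and 12638 against 15655 and 13237. Txnrd2, the mitochondrial counterpart of Txnrd1, gave 2729 and 3171 against 2394 and 2805, with overlap. Of 6 NADPH genes 2 lay above and 1 below (median -0.00). Me1, malic enzyme, gave 523 and 332 against 718 and 564, and Idh1, cytosolic isocitrate dehydrogenase, gave 10735 and 7042 against 5886 and 5694. These 2 NADPH sources had differences in opposite directions, of 0.59 and -0.59 on the log2 scale. Without wildtype array 1 the medians of the 3 lists were 0.17, 0.18 and 0.08. The counts then were 2 above and 1 below for glutathione, 5 and 1 for thioredoxins, and 3 and 1 for NADPH. Of all tested genes 30.2% then lay above and 36.3% below.

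Conjugating, reducing and export genes were, of the 6 lists, the one with most genes below wildtype. Of 19 tested, 7 lay below without overlap and 2 above, beside 18.6% and 14.5% of all tested genes, with a median log2 difference of -0.30. The median was -0.40 between the arrays numbered 1 and -0.08 between those numbered 2. Without wildtype array 1, where 30.2% of all tested genes lay above and 36.3% below, 6 of the 19 lay above and 8 below, and the median was -0.05. Ces1g, a carboxylesterase, gave 540 and 273 on the wildtype arrays and 115 and 168 on the Sox17+/- arrays (log2 difference -1.37, SE 0.38). The glutathione transferase Gstm3 gave 1109 and 1046 against 760 and 738 (log2 difference -0.52, SE 0.20), and Gstm2 gave 366 and 303 against 273 and 243. Abcc1, an exporter of glutathione conjugates, lay above wildtype, at 240 and 283 against 549 and 391 (log2 difference 0.80, SE 0.25). Glutathione transferases of the mu class are related in sequence, and probes can cross-hybridise between them, so their separate values are uncertain. Gstm1, Gstm2, Gstm3 and Gstm4 of this class were all among the 7 below. The count of 7 and the median may therefore rest in part on repeated measurement of the same transcripts.

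**Figure D4:**
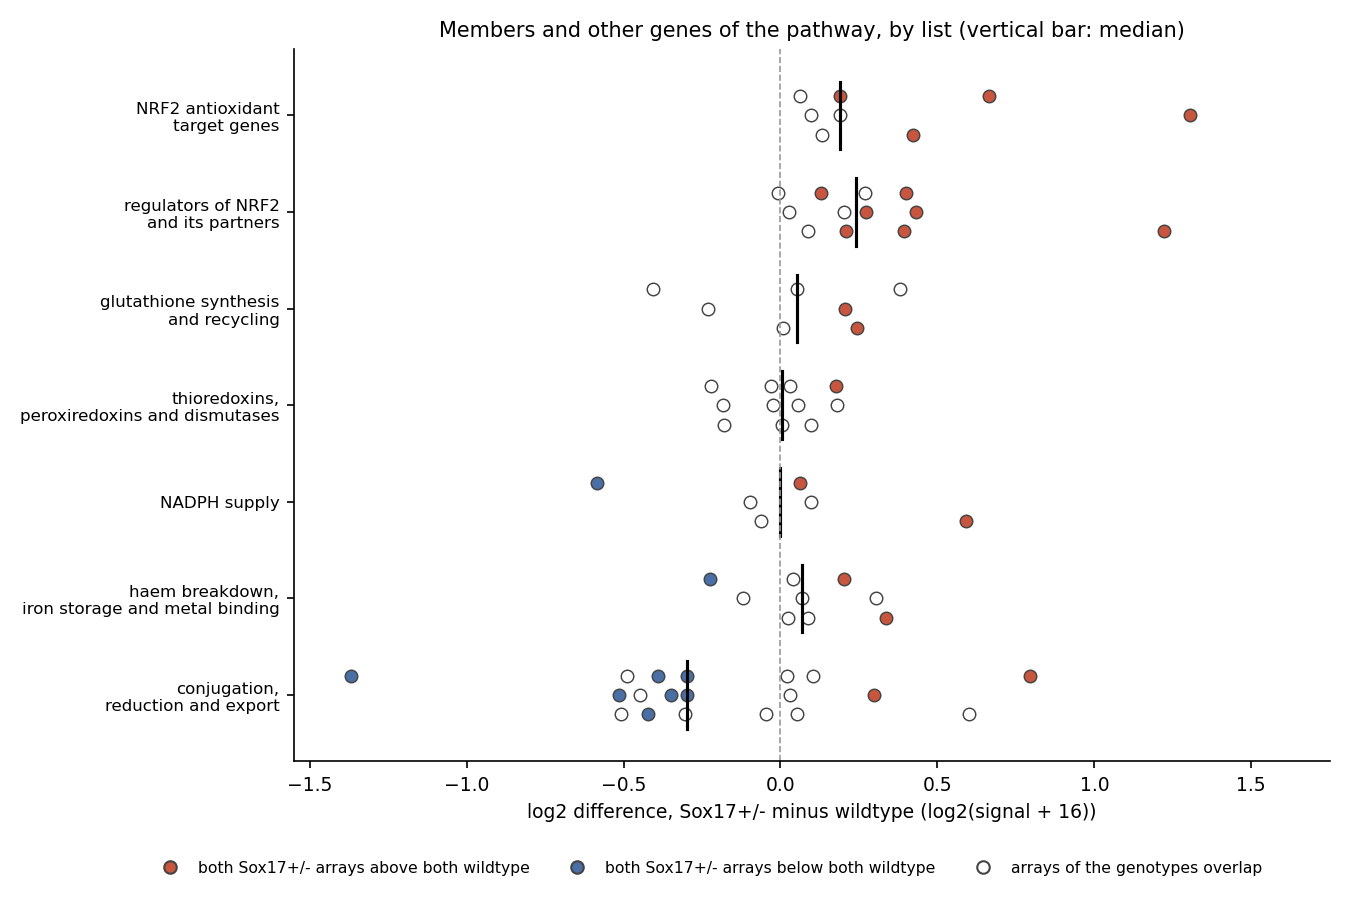
Log2 difference (Sox17+/- minus wildtype, log2 of signal + 16) of the 8 tested NRF2 genes and of the 64 other pathway genes by list, each point a gene, red where both Sox17+/- arrays lay above both wildtype arrays, blue where both lay below and open where they overlapped, with the median as a vertical bar. The members and the regulators have medians of 0.19 and 0.24, and the conjugation, reduction and export list has -0.30 with 7 blue points.

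Markers of cell types that can express these genes are given beside them. The summed signal of 13 macrophage markers was 31543 and 26373 on the wildtype arrays and 30733 and 27306 on the Sox17+/- arrays, so the sums overlapped. Within that list 5 markers lay below wildtype without overlap and 2 above, where 18.6% of all tested genes lay below and 14.5% above. The same shares stand beside the marker counts that follow. Vsig4 and Clec4f, genes of Kupffer cells, gave 811 and 364 against 130 and 194, and 1097 and 584 against 487 and 402. Spic, the haem-induced factor of iron-recycling macrophages, gave 536 and 634 against 735 and 796, and the scavenger receptor gene Marco gave 2257 and 1738 against 5024 and 3274. The 7 measured erythroid markers summed to 100265 and 88789 against 99612 and 83885, and the 7 hepatocyte markers to 310258 and 186327 against 307704 and 177447, with overlap in each. Of these, 1 erythroid marker lay below without overlap and no hepatocyte marker lay apart. The hepatocyte sums differed more between array numbers than between genotypes, so a small difference in hepatocyte share may not be seen in them. The 7 endothelial markers summed to 8003 and 6415 against 7890 and 7940, with 3 above and 1 below. The 4 measured megakaryocyte markers all lay below wildtype, with sums of 26654 and 25079 against 20876 and 21276. The remaining lists, of 5 cholangiocyte, 7 stellate and fibroblast and 6 neutrophil markers, had overlapping sums (467 and 517 against 749 and 479, 10710 and 9423 against 10472 and 10372, and 148291 and 86317 against 147504 and 88239). Within them 1 cholangiocyte marker (Cldn4) lay above, 2 stellate and fibroblast markers (Des and Lrat) above and 1 (Col1a2) below, and no neutrophil marker lay apart. Des, the intermediate filament gene of stellate and muscle cells, gave 125 and 69.7 against 251 and 195, and Cldn4, an epithelial claudin, gave 46.7 and 99.0 against 187 and 131. The part of shifts within the macrophage markers in the Hmox1 difference was not tested.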

How the data were processed

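Expression in 4 fetal liver samples, 2 per genotype, was measured on single-colour Affymetrix arrays from biotin-labelled cRNA. The deposited intensity values are linear probe set signals that the authors made with MAS5, according to the submitters' processing notes. All arrays have the same trimmed mean, so a difference in total RNA between samples cannot be seen. The table held 45101 probe sets, of which 64 were controls and not used, 34945 had 1 gene symbol in the platform annotation, 932 had several and 9160 had none listed.

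Values were transformed as log2(signal + 16), which understates folds of dim genes. A limma fit was made on the 22519 probe sets (50%) with the higher mean log2 signal (version 3.58.1, R 4.3.3, genotype as the only term, moderated and two-sided, 2 residual degrees of freedom and a prior of 3.24), adjusted by Benjamini-Hochberg over all of them at a threshold of 0.05. The code was tested on simulated data. The labels call the samples biological replicates without naming litters, so p-values measure only the spread between these samples, and the number of arrays limits precision.

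The members and lists were chosen with earlier results of these data known. The genes named were Sox17, all members, up to 4 genes of each list with the smallest limma p, and markers set beside a member. Keap1, Hmox2, Hspa1a, Xist, Gstm1, Gstm4, Des, Lrat, Col1a2 and Cldn4 were also named, chosen after their values were seen. No gene was named for likeness of pattern, since 4 arrays do not allow a correlation across samples.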

Additional observations from a re-analysis of the deposited data

How the results depend on the processing

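The directions of Hmox1, Srxn1, Txnrd1, Gclm and Osgin1 were kept under every alternative run, namely a pseudocount of 1 or 64, no filter or the brighter 25%, median centring, quantile normalization, a replicate block, a trended and robust prior, the mean over a gene's probe sets, probe sets with plain names only (none for Txnrd1) and each array left out. Their ranges were 0.74 to 1.87, 0.49 to 0.84, 0.27 to 0.47, 0.08 to 0.30 and 0.05 to 0.34. With each array left out in turn, Nfe2l2 lay between -0.0056 (without heterozygous replicate 2) and 0.13, Nqo1 between -0.10 (without heterozygous replicate 1) and 0.37 and Gclc between -0.16 (without wildtype replicate 1) and 0.36, so these 3 turned, and the cause was not tested. No member passed anywhere (smallest adjusted p 0.167 by limma, Hmox1 without wildtype replicate 2). Over all features 5 probe sets passed with median centring, 3 with the trended prior and 1 gene (Hspa1a, adjusted p 0.0462 by limma) with the mean over a gene's probe sets, none of them members.

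With array number as a replicate block, 0 probe sets passed, 1693 had an unadjusted p under 0.05 against 923 without it, and the smallest adjusted p of a member was 0.629 by limma. Same-numbered arrays share a number and a code in the array name whose meaning the labels do not give. Their highest signals were also alike, 56988 and 56860 on those numbered 1 and 34407 and 32468 on those numbered 2. With 2 arrays per group the deviations of those numbered 1 from their group means correlated at 0.382 over 22519 probe sets.

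With no filter Slc7a11 entered, and 1 of 9 members lay below wildtype, beside 19% of all tested genes. Leaving out 1 array leaves 1 against 2, where 29.2% to 31.2% of all tested genes lay above and 34.7% to 37.9% below. Members above then numbered 4 to 7, members below 0 to 1, and the median lay between 0.15 and 0.35. Pathway genes above numbered 19 to 34 and below 13 to 27, against 16 and 9. With median centring 5 of 64 pathway genes lay below and 16 above, beside 11.1% and 16.2% of all tested genes. With the mean over a gene's probe sets 12 of 63 pathway genes lay above and 13 below, beside 13.5% and 18.7% of all tested genes. Which of the 2 pathway counts was the larger thus depended on the probe sets taken. No filter gave 16 above and 13 below of 69, beside 13.9% and 19%. Quantile normalization gave 19 and 12 of 64, beside 15% and 18.9%. These pathway counts were added as alternatives after seeing the data.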
